A study of Danio rerio with 11 samples.

Results

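Gene expression of unexposed zebrafish larvae was followed from 72 to 96 h post fertilization (hpf) in 5 of the 11 arrays of a study of oil exposure. These were the arrays whose sample titles give control medium and either age, 3 at 72 hpf and 2 at 96 hpf. The study set fish kept with oil emulsion from 3 shoreline sites reached by the Deepwater Horizon spill beside fish of the same ages in medium alone, with total RNA read on Affymetrix zebrafish arrays. Each control array held RNA pooled from a cup of 30 whole fish in 100 ml of medium with no emulsion. The strain is not given in the sources used here. Nothing in the labels ties replicate arrays to different cups or spawnings, and p-values therefore cover only the spread of these arrays, which may be technical. The other 6 arrays are the lone unexposed array at 48 hpf and 5 lone arrays of fish kept with 250 mg of emulsion for the 48 h before collection. The emulsion was from Gulfport at 48, 72 and 96 hpf, and from Fort Morgan or Perdido Key at 72 hpf. All 11 arrays entered the filter on low values and an alternative fit over all arrays. The unexposed 48 hpf array and the Gulfport arrays at 72 and 96 hpf are also set beside the unexposed larvae in their own right.

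In this window a zebrafish larva passes from living on yolk toward feeding. Acinar cells of the exocrine pancreas store the digestive enzymes that the gut will use, enterocytes take on transporters and lipid-binding proteins, and the liver takes up amino acid, bile acid and gluconeogenic metabolism. Photoreceptors, first the cones, gain the proteins that turn light into a signal, while cell division slows in most tissues and embryonic red cells are slowly replaced.

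Signals are on a log2 scale and were computed by the authors with RMA, which corrects background, normalizes arrays to one another and summarises the probes of a set. A difference of 1 is therefore a factor of 2. Differences are 96 minus 72 hpf with the standard error (SE) of a limma fit over the 3 and 2 arrays. A probe set was called where the Benjamini-Hochberg adjusted p of limma over 9803 probe sets was under 0.05. Because whole fish were pooled, fewer cells of a type and less RNA per cell cannot be told apart.

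The arrays carried the organs of a larva. Of 29 defining organ markers, 21 were tested, and each of these read at least log2 6.57 in all 5 arrays. Pancreas, liver, intestine, cone, rod, red cell, muscle, heart, nerve, skin and cartilage markers were all among them, and no hatching gland marker was tested. The cytochrome gene cyp1a, induced by polycyclic hydrocarbons through the aryl hydrocarbon receptor, checked the labels. It read 7.14, 6.84 and 7.13 at 72 hpf and 8.76 and 8.57 at 96 hpf in unexposed larvae, against 12.99 and 13.26 in the Gulfport arrays of those ages. All 5 unexposed arrays thus lay far below the exposed ones, although cyp1a itself rose with age, by 1.63 (SE 0.13, adjusted p = 0.000189, limma).

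The second array at 96 hpf stood apart by immediate early genes, which cells switch on within minutes of a stimulus. The transcription factor gene fosab read 8.38, 8.40 and 9.86 at 72 hpf, then 7.79 in replicate 1 and 11.22 in replicate 2 at 96 hpf. The neuronal activity gene npas4a, chosen after its values were seen, read 6.18, 5.79 and 8.77, then 6.84 and 10.08. In both genes 96 hpf replicate 2 was the highest array and 72 hpf replicate 3 the next. Of the 24 tested genes in the stress and heat shock list, 9 were higher by at least 1 in replicate 2 than in replicate 1 at 96 hpf and 0 were lower by that much. The 96 hpf arrays differed by at least 1 in 75 probe sets, of which 9 were called, while pairs of 72 hpf arrays did so in 21, 36 and 41. No member of the stress list was called between ages, 0 of 24 by limma (2 at an unadjusted p under 0.05) with a list median of 0.23. That median was -0.084 without 96 hpf replicate 2, and 7 members were higher without 96 hpf replicate 1. No age difference is therefore given for these genes.

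**Figure D1:**
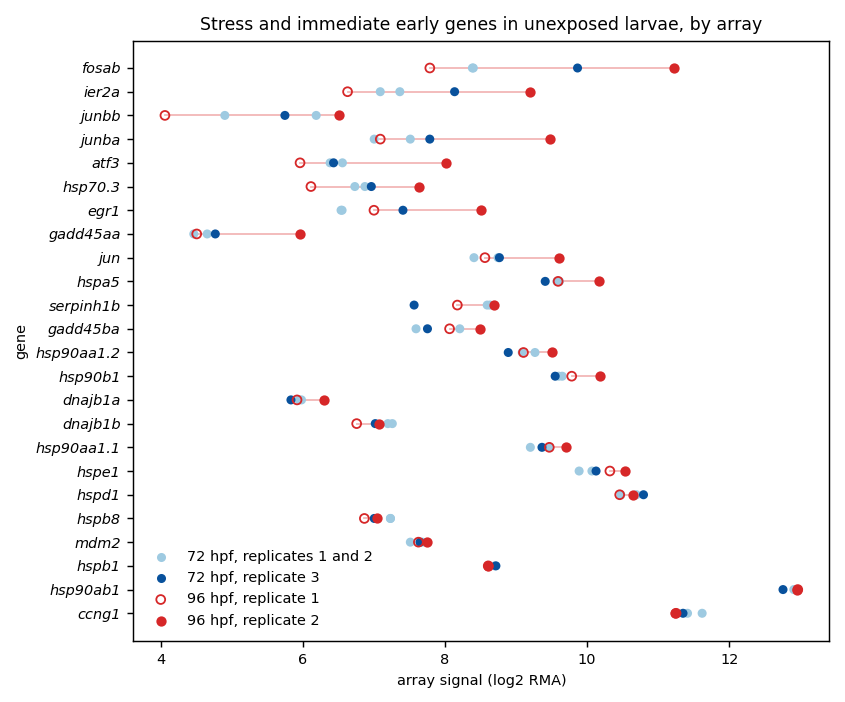
Array signal (log2 RMA, x axis) of the 24 tested stress and immediate early genes (y axis) in each unexposed array, ordered by the gap between the 96 hpf arrays. Filled red points (96 hpf replicate 2) lie to the right of open red points (replicate 1) in 21 genes, by 3.43 for fosab and by at least 1 for 9 genes, and to the left, by less than the width of a point, in hspb1, hsp90ab1 and ccng1.

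Between 72 and 96 hpf 941 probe sets were called, 9.6% of those tested. Of these, 617 (6.29%) were higher and 324 (3.31%) lower at 96 hpf, and in all 941 the arrays of the ages did not overlap. Among all probe sets tested 18.9% were higher and 25.4% were lower without overlap, so a lack of overlap alone is common here. Rises were larger than falls. Of the called probe sets 236 were higher by at least 1 and 72 by at least 2, against 29 and 4 lower by those amounts. Of the 617 called higher, 111 passed the filter on low values only through arrays at 96 hpf, which favours large rises. Among all tested probe sets this held for 188. The median difference over all tested probe sets was -0.04, and 56.5% of the differences were below 0 (54.3% over genes). In terms of genes, each standing through 1 probe set, 447 of 6464 rose (6.92%) and 215 fell (3.33%). An array left out in turn gave 382 to 788 calls, fewest without 96 hpf replicate 2 (382) and 96 hpf replicate 1 (500).

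**Figure D2:**
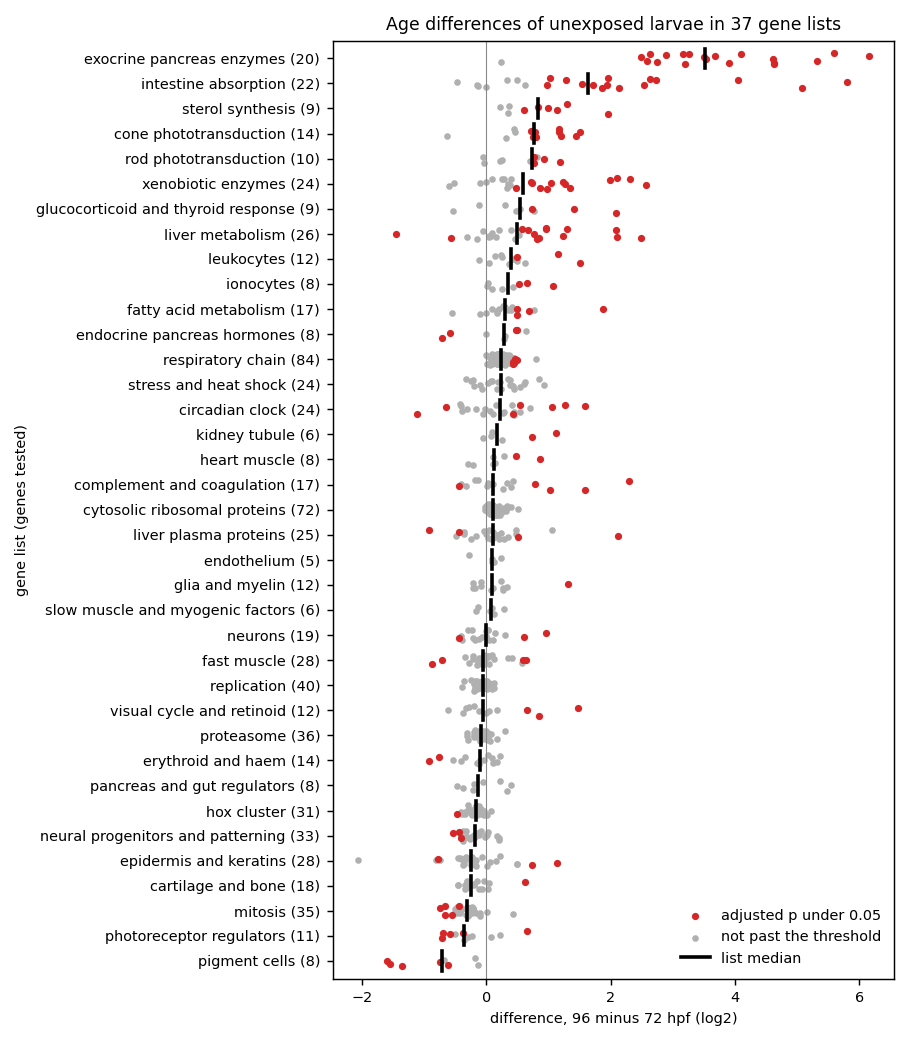
Difference between 96 and 72 hpf (log2, x axis) of each tested gene in the 37 gene lists with at least 5 tested genes (y axis, number tested in brackets). Red points passed the threshold, grey points did not, and black bars are list medians, which run from 3.52 for exocrine pancreas enzymes to -0.72 for pigment cells.

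Digestive enzymes of the exocrine pancreas had the largest median rise of the 37 lists with at least 5 tested genes. Of 20 tested genes on this list, 19 rose and none fell, against a background of 6.29%, and the median difference was 3.52. The elastase gene ela2l showed the largest rise of all named genes: it read 6.05, 6.07 and 6.76 at 72 hpf and 12.23 and 12.66 at 96 hpf. Every 96 hpf array was thus above every 72 hpf array by more than 5 units. The difference was 6.15 (SE 0.23, adjusted p = 5.53e-06, limma), or 71.2-fold.

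Proteases, lipases and amylase moved together. For ctrb.2, which encodes the protease precursor chymotrypsinogen, the 72 hpf arrays gave 5.67, 5.60 and 5.97 and the 96 hpf arrays 11.36 and 11.33, a rise of 5.60 (SE 0.13). The starch-digesting amylase gene amy2a went from 5.61, 5.57 and 5.87 to 10.20 and 10.43, a rise of 4.63 (SE 0.13). The carboxyl ester lipase gene cel.1, whose product splits dietary esters in the gut, went from 4.08, 4.40 and 4.55 to 8.94 and 8.96, a rise of 4.61 (SE 0.14). In each of these genes the spread within an age was under 1 unit while the gap between ages exceeded 4. However, ctrb.2, amy2a and cel.1 all passed the filter on low values only through arrays at 96 hpf, which favours a rise in them. Rises of the other named proteases were 5.32 for the elastase gene ela2, 4.63 for ela3l and 4.10 for the chymotrypsin-like gene ctrl, all called. The trypsinogen gene prss1 read 9.79, 9.88 and 10.19 and then 12.93 and 13.29, and the carboxypeptidase gene cpa5 read 9.28, 9.14 and 9.57 and then 12.45 and 12.61. These markers of the organ were thus already bright at 72 hpf and rose by 3.16 and 3.20. ela3l, also a marker of the organ, started lower, at 6.73, 7.12 and 7.73, and then read 11.59 and 12.06.

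Among the enzymes the second amylase gene on the list was the exception. amy2al1, named after its values were seen, had a mean of 5.74 ± 0.23 (SD, n = 3) at 72 hpf and 5.99 ± 0.23 (SD, n = 2) at 96 hpf, a difference of 0.24 that was not called (adjusted p = 0.385). Its arrays overlapped between ages. Of the 20 genes, 8 passed the filter on low values only through arrays at 96 hpf, which favours a rise in them, and 11 of the other 12 rose. The count of 19 was the same in the fits with each array left out, with median centring, with a replicate or array-class block and with all 11 arrays.

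**Figure D3:**
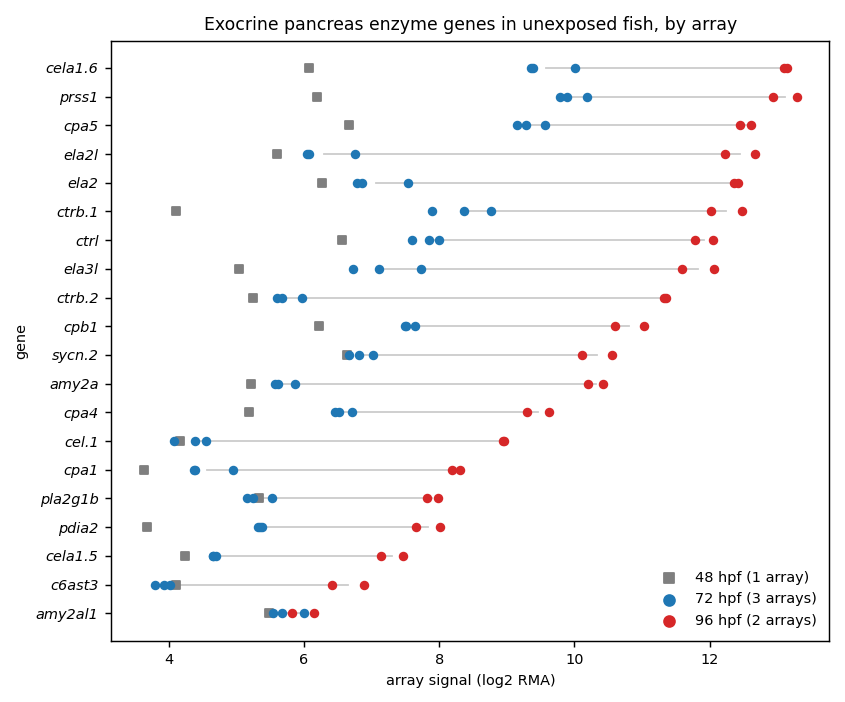
Array signal (log2 RMA, x axis) of the 20 tested exocrine pancreas enzyme genes (y axis, ordered by their 96 hpf mean) in unexposed fish, as grey squares for 48 hpf (1 array), blue points for 72 hpf (3) and red points for 96 hpf (2). The 96 hpf points lie to the right of the 72 hpf points without overlap in 19 genes, and amy2al1 at the bottom is the exception.

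No call was made on the list of pancreas and gut regulators. Of the 13 on the array 8 were tested, and pdx1, nr5a2, gata4, gata6 and onecutl were below the filter. Of 8 tested pancreas and gut regulators, 0 were called in either direction by limma (4 at an unadjusted p under 0.05), and their median was -0.13. The endoderm factor gene gata5 differed by 0.40 (adjusted p = 0.0856) and foxa2, a pioneer factor gene of gut and liver, by -0.47 (adjusted p = 0.067). Among 8 tested hormone and islet factor genes 2 rose and 2 fell, beside 6.92% and 3.33% over all genes. The insulin gene ins read between 7.74 and 8.01 in the 72 hpf arrays and 8.33 and 8.48 at 96 hpf, a rise of 0.49 (SE 0.12, adjusted p = 0.0468). Its arrays did not overlap, but the call was lost without any 1 of the 5 arrays, with adjusted p from 0.0601 to 0.248. The neuroendocrine factor gene neurod1, which the retina also uses, fell by 0.72 (SE 0.10, adjusted p = 0.00327) and remained called without each array. The islet and motor neuron factor gene isl1a fell by 0.58, a call lost without 96 hpf replicate 1 (adjusted p = 0.0847) or replicate 2 (0.0692).

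Absorptive intestine genes formed the next largest rise. Of 22 tested genes 15 rose, beside 6.92% over all genes, and none fell. The median difference was 1.63, and leaving out single arrays gave 14 to 17 rises. The chitinase gene chia.2 led them: it read 5.19, 5.14 and 5.52 and then 11.11 and 11.06, a rise of 5.80 (SE 0.14, adjusted p = 5.59e-07, limma), or 55.9-fold. The ileal bile acid-binding protein gene fabp6 read 5.86, 5.66 and 6.78 and then 11.06 and 11.30, a rise of 5.08 (SE 0.29). Both were low in all 3 arrays at 72 hpf and bright in both at 96 hpf. The second chitinase gene chia.1 rose by 4.06 and the peptide transporter gene slc15a1b by 2.73, from 3.37, 3.09 and 3.18 to 6.12 and 5.77. Of the 22 genes, 5 passed the filter only at 96 hpf, chia.2, chia.1 and slc15a1b among them, and 10 of the other 17 rose.

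Genes of the brush border and of lipid uptake also rose, some from higher starting values. mep1a.1 and mogat2 started low, with 72 hpf means of 5.54 and 5.90. The intestinal fatty acid-binding protein gene fabp2 read 10.03, 9.87 and 10.53 and then 12.07 and 12.09, a rise of 1.94 (SE 0.18). The liver and gut form fabp1b.1 rose by 1.03, from 11.38, 11.25 and 11.34 to 12.32 and 12.38. It had read 12.125 in the lone 48 hpf array, so this rise followed a lower signal at 72 than at 48 hpf. Chosen after their values were seen, vil1, encoding the microvillus protein villin, rose by 2.53, the retinol-binding protein gene rbp2a by 1.54, the meprin protease gene mep1a.1 by 1.86 and mogat2, whose product rebuilds triglyceride from absorbed fat, by 1.71. None of these genes overlapped between ages and all were called without each array. mep1a.1 passed the filter only at 96 hpf, which favours a rise. The 3 tested genes of mucus and secretory cells held 0 calls by limma (1 at an unadjusted p under 0.05), with differences between -0.28 and 0.27.

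The liver was uneven. Genes of liver metabolism rose in 12 of 26 cases and fell in 2. Their median was 0.49 (0.45 over the 27 on the array without the filter). On the plasma protein list only 2 of 25 genes rose and 2 fell, with a median of 0.10. That count of rises was near the 6.92% over all genes, where 3.33% fell. The tyrosine-degrading aminotransferase gene tat read 3.82, 3.48 and 4.09 and then 5.50 and 7.07, a rise of 2.48 (SE 0.40, adjusted p = 0.00747). The 96 hpf arrays of tat lay 1.57 apart, so the size is poorly fixed. tat and asl passed the filter only through arrays at 96 hpf, which favours a rise, and 11 of the other 24 genes rose. The tryptophan dioxygenase gene tdo2a rose by 2.11 (SE 0.17) and the gluconeogenic gene pck1 by 2.08 (SE 0.17), from 6.51, 6.57 and 6.95 to 8.56 and 8.95. Against the list, bhmt, for betaine-dependent methionine synthesis, fell by 0.57, and dao.1, for the oxidation of D-amino acids, fell by 1.46. The 12 rises became 6 without 96 hpf replicate 2 and 9 without replicate 1, and the falls were lost without 96 hpf replicate 2 (adjusted p = 0.0766 and 0.125), that of bhmt also without replicate 1 (0.101).

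The plasma protein list also held the liver marker fabp10a, although its product, the main fatty acid-binding protein of fish liver, is intracellular and not secreted. It read 9.30, 9.24 and 9.59 and then 11.54 and 11.45, a rise of 2.12 (SE 0.13). The transferrin gene tfa, already bright, read 12.12, 12.13 and 12.16 and then 12.37 and 12.49, a difference of 0.29 that was not called (adjusted p = 0.111). The lipoprotein gene apoba, whose product also carries yolk lipid, went the other way and fell by 0.92 (SE 0.11, adjusted p = 0.00135), from 10.53, 10.73 and 10.61 to 9.67 and 9.73. Calls for the plasminogen gene plg (0.50 higher) and the apolipoprotein gene apoc1 (fell by 0.44) were lost without any 1 of the 5 arrays. Of 17 complement and coagulation genes 4 rose and 1 fell, beside 6.92% and 3.33% over all genes. The acute-phase gene crp rose by 2.30 (SE 0.22), the lectin gene mbl2 by 1.58, the alternative pathway gene cfd by 1.03 and the clotting factor gene f7i by 0.78, and these 4 were called without each array. mbl2 and f7i passed the filter only at 96 hpf. The fall of the complement inhibitor gene cfi, by 0.44, was not called without any 1 array.

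Drug-metabolizing enzymes rose in 13 of 24 tested genes, beside 6.92% over all genes, and fell in none. Their median was 0.59, with 10 to 13 rises as arrays were left out. cyp2k6, cyp2p6 and gsto1 passed the filter only through arrays at 96 hpf, which favours a rise. Of the other 21 genes 10 rose, and over the 32 on the array without the filter the median was 0.39. The cytochrome gene cyp3a65, of a family that oxidizes steroids and drugs, read 5.69, 5.37 and 6.13 and then 7.85 and 8.24, a rise of 2.32 (SE 0.22, adjusted p = 0.000453). Other cytochrome genes rose by 2.56 (cyp2k6), 2.11 (cyp2k18) and 1.99 (cyp2ad2). In all 4 the ages were separated by more than 1 unit. Of the 4 tested targets or parts of the aryl hydrocarbon receptor pathway only cyp1a was called.

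Sterol synthesis rose in 6 of 9 genes with a median of 0.82, and fatty acid metabolism in 4 of 17 with a median of 0.30. Over all genes 6.92% rose. The sterol gene nsdhl passed the filter only at 96 hpf, which favours a rise, and 5 of the other 8 rose. Over the 10 sterol genes on the array without the filter the median was 0.71. The sterol oxidase gene msmo1 read 6.17, 5.30 and 5.93 and then 7.48 and 8.03, a rise of 1.95 (SE 0.26), and dhcr7, for the last step to cholesterol, rose by 1.14 (SE 0.12). The desaturase gene fads2, of long-chain fatty acid synthesis, rose by 1.87 (SE 0.25). Single arrays weighed on these lists. Without 96 hpf replicate 2, 2 sterol genes and 1 fatty acid gene were called, and 2 fatty acid genes were called without 72 hpf replicates 1 or 2 or 96 hpf replicate 1. The calls of hmgcs1 (rise of 1.29), cyp51 (1.00) and ehhadh (0.68) were lost only without 96 hpf replicate 2. Their differences in that fit were 1.19, 0.92 and 0.64.

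In the eye, photoreceptor effectors rose a little while several of their regulators fell. Cone phototransduction genes rose in 10 of 14 cases, with a median of 0.76, and rod genes in 4 of 10, with a median of 0.73. The share of rises over all genes was 6.92%. The cone transducin gene gnat2 read 10.03, 10.88 and 10.72 and then 11.71 and 11.78, a rise of 1.20 (SE 0.23, adjusted p = 0.0161). The cone phosphodiesterase gene pde6c read 9.56, 10.24 and 10.06 and then 11.02 and 11.22, a rise of 1.17 (SE 0.19). In both genes 72 hpf replicate 1 was the lowest array and the ages did not overlap. The calls of the cone list rested on few arrays: 4 of 14 were left without 96 hpf replicate 1 and 0 of 14 by limma without 96 hpf replicate 2, with 10 at an unadjusted p under 0.05. Without the latter gnat2 had an adjusted p of 0.109, pde6c of 0.0785, the calcium sensor gene guca1c of 0.0595 and the phosphodiesterase subunit gene pde6ha of 0.0722, and without 96 hpf replicate 1 gnat2 had 0.077.

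Of the 4 tested cone opsin genes 3 rose. The blue opsin gene opn1sw2 read 11.43, 11.86 and 11.83 and then 12.42 and 12.55, a rise of 0.78 (SE 0.15, adjusted p = 0.0165), lost without 96 hpf replicate 1 (0.0645) or 2 (0.123). The ultraviolet opsin gene opn1sw1 rose by 0.75 and the green opsin gene opn1mw1 by 0.73, and these calls were also lost without either 96 hpf array (0.10 to 0.165), that of opn1sw1 also without 72 hpf replicate 2 (0.05). Rods were followed through the transducin gene gnat1, which rose by 0.93 (SE 0.13), from 8.49, 8.78 and 8.81 to 9.59 and 9.65, and the phosphodiesterase gene pde6a, which rose by 1.18 (SE 0.14). Both were called without each array, and pde6a passed the filter only at 96 hpf. The rod count of 4 became 2 without 96 hpf replicate 2, where the outer segment gene rom1b (0.77 higher) had an adjusted p of 0.161, beside 0.0679 and 0.057 without 72 hpf replicates 1 and 3. Rod opsin was not analysed here. Of 12 visual cycle and retinoid genes 3 rose, beside 6.92% over all genes. The retinoid carrier gene rbp3, of the space around photoreceptors, rose by 1.47 (SE 0.23), a call also lost without 96 hpf replicate 2 (adjusted p = 0.0645).

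Photoreceptor regulators had a median of -0.37, with 4 of 11 called lower and 1 higher, beside 3.33% and 6.92% over all genes. The homeobox gene crx, which drives photoreceptor genes, read 8.72, 8.83 and 8.54 and then 7.93 and 8.06, and fell by 0.70 (SE 0.12, adjusted p = 0.0102). The bipolar cell gene vsx1 fell by 0.59 and neurod1 by 0.72, whereas six7, a regulator of cone opsins in zebrafish, rose by 0.65. The call of crx was lost without 96 hpf replicate 1 (0.078), that of six7 without replicate 2 (0.0913) and that of vsx1 without either (0.0617 and 0.0912). The 4 lens genes held 0 calls by limma (0 at an unadjusted p under 0.05), and cryaa read 6.57, 6.69 and 6.66 and then 6.88 and 6.61.

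Of 3 tested globin genes 2 fell, beside 3.33% over all genes. The embryonic alpha globin gene hbae3 read 13.77, 13.74 and 13.68 and then 12.49 and 12.44, and fell by 1.27 (SE 0.10, adjusted p = 0.000159, limma), 2.41-fold lower. The embryonic beta globin gene hbbe2 fell by 0.84 (SE 0.16, adjusted p = 0.0157), from 11.24, 11.71 and 11.65 to 10.59 and 10.80. The globin hbbe3 read 5.31, 4.73 and 5.19 and then 4.42 and 4.53 and was not called (adjusted p = 0.0672). All 3 globins were lower in both 96 hpf arrays than in every 72 hpf array, as were 25.4% of all probe sets tested. The call of hbbe2 was lost without 72 hpf replicate 2 (0.0535), 96 hpf replicate 1 (0.102) or replicate 2 (0.0579). Of 14 other erythroid and haem genes 2 fell, 5 differences were above 0 and the median was -0.11. The haem synthesis gene alas2 read 7.55, 7.83 and 7.55 and then 6.68 and 6.75 and fell by 0.93 (SE 0.12, adjusted p = 0.00264). The nucleotidase gene nt5c2l1 fell by 0.76, a call lost without 96 hpf replicate 2 (0.0692). Of 12 white cell genes 3 rose, beside 6.92% over all genes. They were the granulin gene grna.1, 1.51 higher (SE 0.21), the lysosomal protease gene lgmn, 1.15 higher (SE 0.13), and the cathepsin gene ctss2.2, 0.50 higher. grna.1 passed the filter only at 96 hpf, and the call of ctss2.2 was lost without any 1 of the arrays. In the collagenase gene mmp13a 96 hpf replicate 2 (8.85) again lay above replicate 1 (6.72), and its difference was -0.45 without replicate 2.

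**Figure D4:**
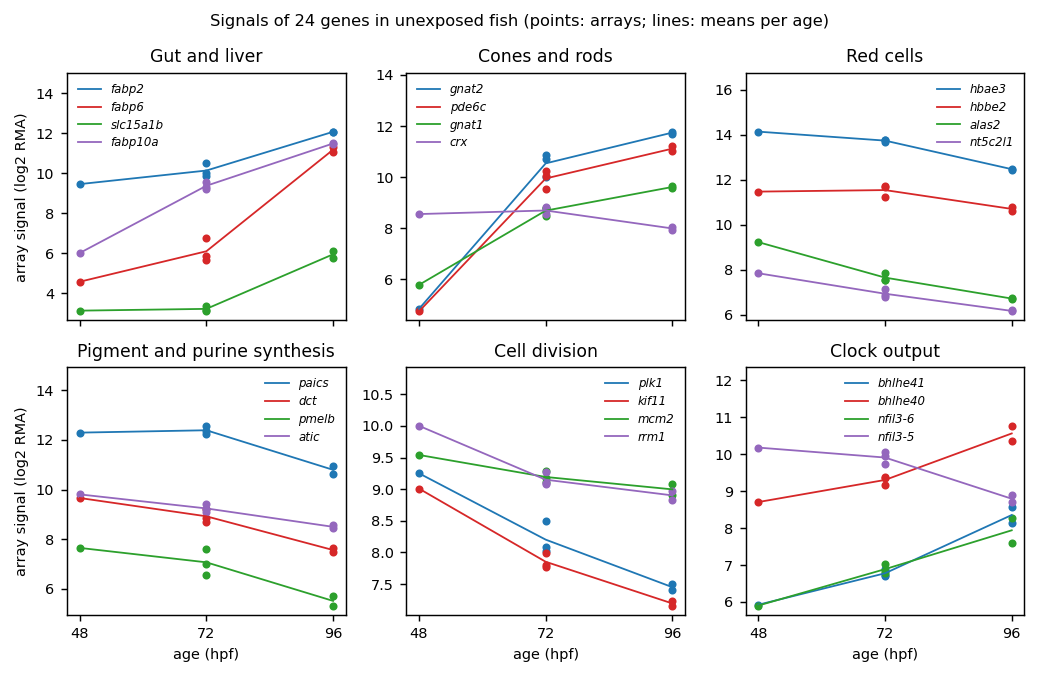
Array signal (log2 RMA, y axis) against age (hpf, x axis) for 24 genes in unexposed fish, with a point for each array and lines through the mean of each age (48 hpf has 1 array, 72 hpf has 3 and 96 hpf has 2). The panels show gut and liver genes higher at 96 hpf, cone genes that rise mostly before 72 hpf, and red cell, pigment and mitosis genes that are lower at 96 hpf.

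On the pigment cell list, which also holds purine synthesis genes, 5 of 8 genes fell, beside 3.33% over all genes, and none rose. All 8 differences were below 0. The median was the lowest of those 37 lists, -0.72, and was -0.54 over the 12 on the array without the filter. Black pigment was represented by dct, an enzyme gene of melanin synthesis, which read 9.21, 8.85 and 8.69 and then 7.47 and 7.64 and fell by 1.36 (SE 0.16, adjusted p = 0.00142). The melanosome fibre gene pmelb fell by 1.56 (SE 0.27), from 7.61, 6.57 and 7.01 to 5.32 and 5.69. The purine synthesis genes that iridophores and xanthophores use for their pigments fell with them. The largest was paics, which read 12.25, 12.57 and 12.35 and then 10.63 and 10.95 and fell by 1.60 (SE 0.14, adjusted p = 0.000319), 3.02-fold lower. atic fell by 0.74 and gart by 0.61. Calls of paics and dct held without each array, those of pmelb and atic were lost without 96 hpf replicate 1 (adjusted p = 0.0805 and 0.0727), and that of gart was lost without 72 hpf replicates 2 or 3 or either 96 hpf array (0.0602 to 0.161).

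Other genes among the 12 largest falls included unnamed loci and immune or skin genes. zgc:112964 read 8.71, 9.05 and 8.58 and then 6.57 and 6.77 and fell by 2.11 (SE 0.15, adjusted p = 0.0001), the largest fall among the named genes. zgc:86738 fell by 1.63, zgc:193505 by 1.33 and si:ch73-15b2.5 by 1.14. These 4 were called without each array. irg1l fell by 1.41, with its 96 hpf arrays at 4.78 and 6.15, si:dkey-239j18.3 fell by 1.45 and the annexin gene anxa1d fell by 1.28. These 3 calls were lost without at least 1 of the arrays: anxa1d without 96 hpf replicate 2 (adjusted p = 0.0722), si:dkey-239j18.3 without 72 hpf replicate 1 or either 96 hpf array (0.0624 to 0.116) and irg1l without each array except 96 hpf replicate 2 (0.0842 to 0.164). Among the 12 largest rises the 2 genes outside pancreas and gut lists were the probe set annotated cell, 4.68 higher, and zgc:153968, 4.53 higher.

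Of 35 mitosis genes 5 fell, beside 3.33% over all genes, and none rose. Of the 35 differences 33 were below 0, beside 54.3% over all genes, and the median was -0.31. The polo kinase gene plk1, which drives entry into mitosis, read 8.50, 8.02 and 8.08 and then 7.49 and 7.41 and fell by 0.75 (SE 0.15, adjusted p = 0.0221). The spindle motor gene kif11 fell by 0.66 (SE 0.11), from 7.99, 7.80 and 7.77 to 7.23 and 7.16. The ages did not overlap in either gene. The calls were lost without 96 hpf replicate 2, which left 0 of 35 by limma (5 at an unadjusted p under 0.05; adjusted p = 0.139 for plk1 and 0.0809 for kif11), and 2 were left without replicate 1, where plk1 had 0.0879. The fit over all 11 arrays, with exposure as a term, called 21 of the 35 lower, beside 1330 of all 9803 probe sets. DNA replication genes, 40 in number, held 0 calls in either direction by limma (2 at an unadjusted p under 0.05) and a median of -0.06: the helicase gene mcm2 read 9.29, 9.17 and 9.11 and then 9.08 and 8.91, and the nucleotide reductase gene rrm1 read 9.08, 9.09 and 9.27 and then 8.97 and 8.83.

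Few progenitor genes were called, and over all genes 3.33% were called lower. Neural progenitor and patterning genes fell in 3 of 33 cases, with 28 differences below 0, beside 54.3% over all genes, and a median of -0.19. The radial glia gene fabp7a fell by 0.54 (SE 0.10, adjusted p = 0.0156), the proneural gene neurod4 by 0.44 and the eye and brain gene pax6a by 0.41, and each call was lost without either 96 hpf array (fabp7a 0.103 and 0.0673), those of neurod4 and pax6a also without 72 hpf replicate 1 or 2 and that of pax6a without replicate 3 (0.0758 to 0.11). Of 31 hox genes 29 differences were below 0, beside 54.3% over all genes, with a median of -0.17. Only hoxc8a was called lower by limma, by 0.47 (adjusted p = 0.0417), a share near the 3.33% over all genes. That call was lost without each array except 72 hpf replicate 3.

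Housekeeping machinery shifted little. Of 72 cytosolic ribosomal protein genes 69 differences were above 0, beside 2954 of 6464 over all genes. Their median was 0.11, and 0 were called by limma (6 at an unadjusted p under 0.05). Of 84 respiratory chain genes 83 differences were above 0 with a median of 0.23. Only 5 were called higher, near the share of 6.92% over all genes. The largest of these was uqcrb, of complex III, which read 10.68, 10.92 and 10.99 and then 11.34 and 11.38, a rise of 0.50 (SE 0.12, adjusted p = 0.0418). These small differences sat at the threshold: 0 respiratory genes were called by limma without 72 hpf replicate 2 or either 96 hpf array (21, 19 and 10 at an unadjusted p under 0.05), 1 without 72 hpf replicate 1 and 7 without replicate 3, against 43 in the fit over all 11 arrays. The fit over all 11 arrays called 1078 of 9803 probe sets higher. Proteasome genes had 29 of 36 differences below 0, beside 54.3% over all genes. Their median was -0.09, with 0 calls by limma (3 at an unadjusted p under 0.05).

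Among the other tissues most genes were not called. Fast muscle genes had a median of -0.05 over 28 genes, with 2 called higher and 2 lower. The shares over all genes were 6.92% higher and 3.33% lower. The myosin light chain gene mylpfa read 13.94, 13.96 and 13.97 and then 13.96 and 13.91, the tightest of the organ markers. Against it the skeletal actin gene acta1a fell by 0.88 (SE 0.10, adjusted p = 0.00142), from 12.05, 12.13 and 11.98 to 11.21 and 11.14, and was called without each array. The troponin T gene tnnt3a fell by 0.71, lost without 96 hpf replicate 2 (0.0582). In the heart list 2 of 8 rose, led by the calcium pump gene atp2a2a (0.86 higher, SE 0.14), lost without 96 hpf replicate 2 (0.0762).

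Nerve and glia were largely flat apart from 1 myelin gene, and over all genes 6.92% rose and 3.33% fell. The myelin basic protein gene mbpa read 7.82, 8.32 and 8.15 and then 9.45 and 9.36, a rise of 1.31 (SE 0.15, adjusted p = 0.00134), the only one called of 12 glial genes, and it held without each array. Of 19 neuronal genes 2 rose and 1 fell: the sodium pump gene atp1a3b was 0.95 higher and gad1b, for the synthesis of the transmitter GABA, 0.60 higher, while the early neuronal gene elavl3 fell by 0.45. These calls were lost without either 96 hpf array (adjusted p from 0.105 to 0.204), that of atp1a3b also without 72 hpf replicate 2 and those of gad1b and elavl3 without 72 hpf replicate 1 or 3 (0.0596 to 0.104). The synaptic gene snap25a read 10.72, 10.88 and 10.68 and then 10.85 and 10.88.

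Transport epithelia rose in part, and over all genes 6.92% rose. The ionocyte sodium pump gene atp1a1a.4, which powers ion uptake through the skin, read 9.23, 8.97 and 9.20 and then 10.21 and 10.20, a rise of 1.07 (SE 0.12, adjusted p = 0.000888). It was 1 of 3 called higher among 8 ionocyte genes, with the pump subunits atp1b1a (0.65) and atp1b1b (0.53), whose calls were lost without 96 hpf replicate 2 (0.078 and 0.139), that of atp1b1b also without 72 hpf replicate 2 (0.0652) or 96 hpf replicate 1 (0.0688). In the kidney list the tubule cadherin gene cdh17 rose by 1.12 (SE 0.14) and the organic cation transporter gene slc22a2 by 0.74, the latter tested only through its 96 hpf level and lost without 96 hpf replicate 2 (0.0817). Of 28 epidermal genes the keratins krt97 (1.14 higher, SE 0.12) and krt94 (0.73 higher) rose and agr1 fell by 0.79. These counts were near the shares over all genes, 6.92% higher and 3.33% lower. The call of krt94 was lost without 96 hpf replicate 2 (0.0677) and that of agr1 without each array except 72 hpf replicate 3 (0.057 to 0.197). The skin markers krt4 and krt5 were not called, with differences of -0.45 and -0.33. Cartilage and bone genes had a median of -0.24, and 1 of 18 rose, a share near the 6.92% over all genes. It was the hypertrophic collagen gene col10a1a, 0.63 higher, a call lost without either 96 hpf array (differences then 0.64 and 0.61). Of 5 endothelial and 4 hatching gland genes 0 were called by limma (2 and 0 at an unadjusted p under 0.05).

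Some clock and hormone genes changed as well. Of 24 clock genes 5 rose and 2 fell, beside 6.92% and 3.33% over all genes. With median centring 3 rose and 3 fell, and the rises numbered 3 without replicate 1 of either age and 2 without 96 hpf replicate 2. The light-regulated repressor gene bhlhe41 read 6.71, 6.90 and 6.72 and then 8.13 and 8.58, a rise of 1.58 (SE 0.15, adjusted p = 0.000453), and its relative bhlhe40 rose by 1.26 (SE 0.15). The repressor gene nfil3-5 fell by 1.12 (SE 0.13) from 10.06, 9.94 and 9.73 to 8.70 and 8.89, while nfil3-6 rose by 1.05, so members of 1 family went opposite ways. Calls of bhlhe41, bhlhe40 and nfil3-5 held without each array, and those of nfil3-6 and the cryptochrome gene cry4, which fell by 0.65, were lost without 96 hpf replicate 2 (0.0538 and 0.0519), and that of nfil3-6 also without 72 hpf replicate 2 (0.05). The hour of day at collection is not given in the sources used here, and its part in these differences was not tested. Of 9 glucocorticoid and thyroid response genes 3 rose. Among them the thyroid hormone deiodinase gene dio1, which passed the filter only at 96 hpf, rose by 1.41 (SE 0.15, adjusted p = 0.000902). The growth hormone gene gh1, chosen after its values were seen, read 5.99, 5.48 and 6.31 and then 7.14 and 7.13, a rise of 1.21 lost without 96 hpf replicate 1 (0.0692) or 2 (0.0794).

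Differences from 72 to 96 hpf were also set against those from 48 to 72 hpf. Both use the same 72 hpf arrays, so an error in their mean enters with opposite signs, and the 48 hpf group is 1 array assumed to vary like the others. In 366 probe sets (3.73%) the later difference departed from the earlier one by limma, in 169 (1.72%) upward and in 197 (2.01%) downward. In 14 of the 20 exocrine enzymes the later difference was larger by this test. Of the 8 that passed the filter only at 96 hpf, which favours a later rise, it was 7, and of the other 12 it was also 7. For these 14 the earlier differences ran from -0.19 to 2.15 and the later ones from 2.59 to 6.15. ctrb.1, cela1.6, cpa5, prss1 and pdia2 had earlier differences of 1.67 to 4.23 and later ones of 2.48 to 3.90, with no difference called between the windows.

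Cone genes were early. In 12 of the 14 the later difference was smaller, the earlier differences of those 12 running from 1.99 to 7.05 and the later ones from -0.64 to 1.44. gnat2 read 4.85 at 48 hpf, and its later difference less its earlier one was -4.49 (adjusted p = 0.00144). Mitosis genes had a median of -0.94 in the earlier window and -0.31 in the later, and in 0 of 35 was a difference between the windows called by limma (19 at an unadjusted p under 0.05). Single genes showed other courses. paics read 12.29 at 48 hpf, within its 72 hpf range, and was lower only at 96 hpf (later less earlier difference -1.69, adjusted p = 0.0142). hbbe3 read 10.58 at 48 hpf against 4.73 to 5.31 at 72 hpf, so its lower signal came in the earlier window (later less earlier difference 4.90, adjusted p = 0.000215).

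The same ages in larvae kept with Gulfport emulsion gave a second measure from arrays that were in neither group, 1 at each age and so without a test. Their 48 h exposures ended at collection and therefore covered different ages. Of the 617 probe sets called higher in unexposed larvae 582 (94.3%) were also higher at 96 than at 72 hpf in the Gulfport arrays. Of the 617, 111 passed the filter on low values only through arrays at 96 hpf. The Gulfport array of that age counted in this filter, which favours a higher Gulfport value at 96 hpf in them. Of the 324 called lower 299 (92.3%) were also lower, and over all probe sets tested the signs matched in 70.0%. Differences of at least 1 were seen in the Gulfport pair in 368 probe sets upward (3.75%) and 177 downward (1.81%). The Gulfport difference of ela2l was 6.85 beside 6.15 in unexposed larvae, and that of the gut gene fabp6 6.23 beside 5.08. In the liver gene fabp10a it was 3.27 beside 2.12, and in the cone gene gnat2 2.61 beside 1.20. The purine synthesis gene paics gave -1.56 beside -1.60.

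Some lists differed in level between the pairs. Cone genes had a median of 1.87 in the Gulfport pair beside 0.76 and sterol synthesis genes 0.00 beside 0.82. For msmo1 the Gulfport difference was 0.23 and for cyp51 -0.35. The difference between the pairs was tested by limma over all groups, an alternative chosen after seeing the data: 0 of 9803 probe sets passed (0%), with 953 at an unadjusted p under 0.05. With 1 array on each side this test does not show that the pairs were alike.

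**Figure D5:**
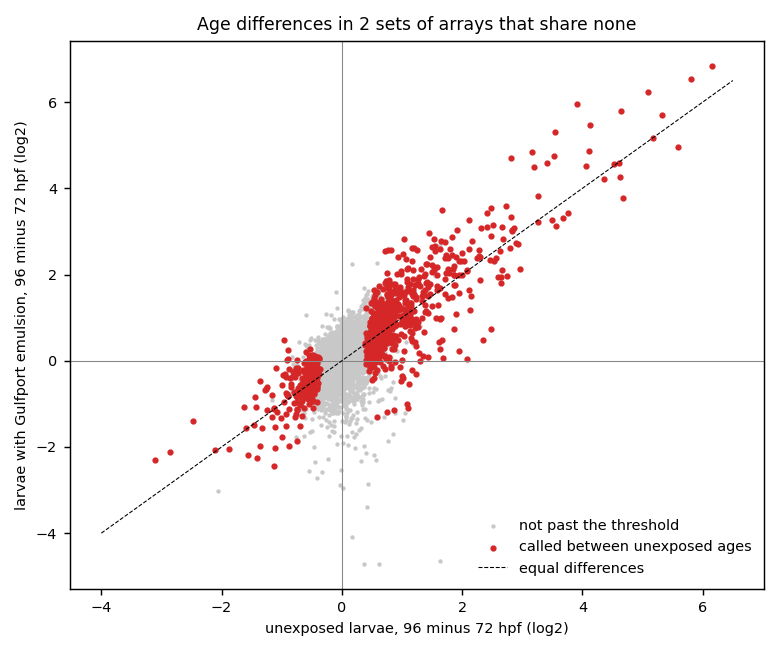
Difference between 96 and 72 hpf (log2) in larvae kept with Gulfport emulsion (y axis, 1 array per age) against that in unexposed larvae (x axis, 3 and 2 arrays), with a point for each of the 9803 probe sets and a dashed line of equality. Of the 941 called probe sets, in red, 881 (93.6%) have the same sign on both axes.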

How the data were processed

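The authors deposited log2 signals per probe set, made with RMA per the submitters' processing notes. The software version is not given in the sources used here. No scanner files were used, so no detection call was made and low values may hold background. Of 15617 probe sets 115 controls were left out, and the 9803 that reached log2 6 in at least 1 of 11 arrays were tested with limma 3.58.1 (R 4.3.3; lmFit and eBayes). Adjustment was by Benjamini-Hochberg. On simulated data of this design limma recovered 97 of 100 probe sets changed by 1 and 100 of 100 changed by 2, with 11 false calls. Smaller changes were not simulated, and only 265 of the 941 calls differed by at least 1. The simulated counts therefore do not give power or error for most of the calls. Nor do they show how the calls depend on single arrays. Array medians ran from 6.37 to 6.42, and the number of arrays limits precision. Platform symbols were updated through a RefSeq gene table (10711 identifiers matched, 1 symbol changed): 7570 tested probe sets had 1 symbol, 80 several and 2153 none, and only the first were named. A gene stood through its probe set of highest mean. The 43 lists held 1376 genes, 945 on the array and 800 tested.

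The members and lists were chosen with earlier results of these data known. Named genes were the 12 largest called differences in each direction, the 4 largest members of each list with at least 5 tested genes and up to 2 called members against its median, and cyp1a, 165 in all. A further 49 were organ markers or genes chosen after their values were seen. The main fit did not pair arrays by replicate number. The deviations of same-numbered arrays from their age means correlated at -0.05 and -0.06. With 2 arrays at 96 hpf these values cannot exclude pairing, and replicate 2 of both ages had the lowest lower quartiles. Alternatives were other filters, centring, moderation, array weights, all 11 arrays, a replicate block and leaving out each array, and, chosen after seeing the data, a block of arrays by lower quartile. Figures were drawn with matplotlib 3.10.9 in Python 3.11.15.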

Additional observations from a re-analysis of the deposited data

How the results depend on the processing

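The 941 calls became 2408 with all 11 arrays in the fit, 265 with a difference of at least 1 also required, and 382 to 788 with 1 array left out. The 617 higher became 370 with a log2 8 filter, 1078 with all 11 arrays, 236 with the difference required and 304 to 533 with 1 array left out. The 324 lower became 1330, 29 and 78 to 255 in the last 3 of these settings. The 366 probe sets that differed between windows became 235 with the log2 8 filter and 135 to 228 with 1 array left out, their 169 upward 100 and 69 to 100, and their 197 downward 66 to 128. With a replicate block 784 probe sets were called, 676 of them among the 941. A block of arrays by lower quartile, chosen after seeing the data, gave 781, of which 745 were among the 941. That block set apart replicate 2 of both ages, with lower quartiles of 4.75 and 4.77 beside 4.81 to 4.84. The share of calls with the same sign in the Gulfport pair moved from 93.6% to 98.4% with the mean of 3 emulsions at 72 hpf. The stress list median ran from -0.084 without 96 hpf replicate 2 to 0.55 without replicate 1. Of 144 named genes that were called, 0 reversed, 69 were called under every setting, and 70 lost their call without 96 hpf replicate 2 and 51 without replicate 1. Genes that were not called reversed without a single array, and their differences then ran from -0.45 to 1.68 for mmp13a, -0.34 to 2.05 for junba, -1.10 to 2.34 for fosab, -0.12 to 1.34 for gadd45aa, -0.075 to 3.16 for npas4a, -0.42 to 2.47 for egr4, -0.044 to 0.0093 for mylpfa, -0.22 to 0.048 for mef2ca and -0.028 to 0.24 for cryaa. With all 11 arrays mmp13a was -0.62, and with the replicate block mef2ca was 0.048. Fewer samples enter the fits with an array left out; the cause of the other changes was not tested.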

Other observations

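Genes outside the stress list also separated the 96 hpf arrays. Those named here were picked for a gap of at least 1, so its direction is a description with no test. In replicates 1 and 2 in turn the cytokine inhibitor gene socs3a read 7.82 and 10.06, the phosphatase gene dusp1 8.72 and 10.15, the kinase gene sik1 6.74 and 8.45, and the growth arrest gene btg2 7.32 and 9.59. The inflammation gene cebpb read 7.85 and 10.08 and the annexin gene anxa1b 5.46 and 7.85, while anxa1c read 10.17 and 8.60 and the keratin gene krt1-19d 9.31 and 7.89, so some skin genes went the opposite way. In the unexposed 72 hpf arrays btg2 read 8.25, 8.30 and 8.90. The Gulfport array at 96 hpf read 8.46 for fosab, 7.21 for junba and 8.09 for socs3a, each closer to replicate 1 than to replicate 2. Some genes with such a gap went the other way. It read 5.51 for gadd45aa, beside 4.50 and 5.96 in replicates 1 and 2, and 7.02 for tat, beside 5.50 and 7.07. What the fish or the RNA of replicate 2 met before extraction is not given in the sources used here.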
